A study of Mus musculus with 6 samples.

Results

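The interferon-response genes examined here were 36 genes matched by symbol among the 32285 genes of the deposited count tables, and all 36 were found. They fall into 6 groups by role: 12 antiviral effectors and their regulators, 4 transcription factors, 11 GTPases, 4 genes of antigen processing, 3 *Ifitm* genes and 2 chemokines. Their UMIs (unique molecular identifiers, 1 per captured transcript) were summed per library over the cells of each population, and are given as CPM, the UMIs of a gene per 1000000 UMIs of all genes in those cells.

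The cells were tdTomato+ cells sorted from mouse dorsal skin and profiled by droplet scRNA-seq with 3′ counting, in 6 libraries that form 3 groups of 2. The WT telogen libraries (PD20, strain label C57BL/6;CD1) and the WT anagen libraries (PD32, the same strain label) came from tdTomato;Cdh5-CreERT2;Krt14-H2BGFP mice. The libraries labelled Alk1 KO came from telogen skin of Alk1 flox/flox;tdTomato;Cdh5-CreERT2 mice at PD25 with the strain label C57BL/6. All mice were given tamoxifen (200 µg/g) at PD17, and *Cdh5*, the VE-cadherin gene, drove the tamoxifen-induced Cre in each of them. Cells with *Cdh5* expression around the time of tamoxifen, and their progeny, could thus be labelled or recombined. The paper regards its fibroblast and immune clusters as contaminants that lack *Cdh5*. Whether Alk1 was deleted in such cells was not tested. Genotype in the KO comparison cannot be told apart from the difference in age, strain, time since tamoxifen and the *Krt14*-H2BGFP allele. The paper also describes the KO cells as a dataset from its authors' earlier work. A difference between experiments can therefore not be told apart from genotype either. The genotype field of the KO libraries reads wild type, and their KO status was taken from their titles. Each library is stated to be 1 mouse, so every p of the KO and anagen comparisons within a population measures the spread between 2 mice per group. Comparisons between populations took the library as a block, so their p measures the spread of differences within mice.

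The libraries held 10615358 to 43317677 UMIs, the 2 KO libraries being the shallowest, and 1713 to 5106 cells each passed the filters. Pairs of libraries shared 1 to 8 cell barcodes. Cell types were called from marker genes, and 6 populations had enough cells in every library for a test: blood endothelial cells (ECs), lymphatic ECs, *Krt19*+ perineurial-like cells, pericyte-like cells, fibroblast-like cells and macrophage-like cells. The Alk1 gene *Acvrl1* was measured in blood ECs at 209.5 and 184 CPM in the WT telogen libraries, 156.8 and 169.2 CPM in the anagen libraries, and 164.1 and 153.6 CPM in the KO libraries. The KO difference for *Acvrl1* in these cells was −0.35 on the log2 scale (SE 0.13, adjusted p = 0.0669), and in lymphatic ECs it was −0.21 (adjusted p = 0.463). A 3′ count can lie outside the deleted part, so these levels leave the KO label unchecked. In macrophage-like cells, of which the KO libraries held few, *Acvrl1* was 28.7 and 26.6 CPM in the WT telogen libraries against 0 and 4.09 CPM in the KO libraries (adjusted p = 0.0373). By the same edgeR test the difference was −1.22 in fibroblast-like cells (adjusted p = 0.0232) and −1.85 in pericyte-like cells (adjusted p = 0.0583). In perineurial-like cells it was −1.18 (adjusted p = 0.329).

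Interferons are secreted proteins that announce viral or bacterial infection to neighbouring cells. Type I interferons, such as interferon-β, act largely through a DNA motif called the interferon-stimulated response element, whereas interferon-γ acts largely through a motif called the gamma-activated site. The genes switched on make proteins that block viral RNA (*Ifit*, *Rsad2*), are joined to other proteins (*Isg15*), hold virions at the membrane (*Bst2*) or restrict viral entry (*Ifitm*). Others attack the vacuoles of intracellular pathogens (the *Gbp* and *Irgm* families). A further group builds the immunoproteasome and peptide transporter that feed MHC class I (*Psmb8*, *Psmb9*, *Psmb10*, *Tap1*). Many tissues, endothelium among them, express a low level of these genes without infection.

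The promoters of 6 members are shown because these genes carry the contrasts described below: *Ifit1*, *Isg15*, *Gbp2* and *Igtp* differed in their KO response between the lymphatic and the blood endothelium, *Bst2* was lower in the KO libraries in most populations, and *Irf1* was higher. Each run is the 150 bases before the annotated start, read 5′ to 3′ on the strand of the gene, from RefSeq on GRCm38.p6. Capitals mark matches, on either strand, to the response element (GAAA, any 2 bases, GAAA) or to the gamma-activated site (TTC, any 3 bases, GAA).
Ifit1 (antiviral effector), chr19:34640739-34640888, plus strand: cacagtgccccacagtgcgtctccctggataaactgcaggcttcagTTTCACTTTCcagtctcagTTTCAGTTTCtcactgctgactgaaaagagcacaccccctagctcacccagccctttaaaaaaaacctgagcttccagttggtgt
Isg15 (ubiquitin-like modifier), chr4:156200819-156200968, minus strand: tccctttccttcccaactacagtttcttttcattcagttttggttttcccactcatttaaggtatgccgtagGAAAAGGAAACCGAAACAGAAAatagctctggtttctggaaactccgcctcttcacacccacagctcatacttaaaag
Bst2 (tetherin), chr8:71537473-71537622, minus strand: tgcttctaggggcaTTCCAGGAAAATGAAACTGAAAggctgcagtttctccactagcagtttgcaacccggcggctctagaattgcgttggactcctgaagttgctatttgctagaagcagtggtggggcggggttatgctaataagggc
Gbp2 (guanylate-binding protein), chr3:142620513-142620662, plus strand: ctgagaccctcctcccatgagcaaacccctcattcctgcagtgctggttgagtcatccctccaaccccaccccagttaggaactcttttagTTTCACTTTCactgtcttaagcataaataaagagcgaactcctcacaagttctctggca
Igtp (immunity-related GTPase), chr11:58199406-58199555, plus strand: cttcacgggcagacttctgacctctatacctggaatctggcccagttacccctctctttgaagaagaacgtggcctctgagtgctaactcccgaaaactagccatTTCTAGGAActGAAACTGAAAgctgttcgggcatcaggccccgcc
Irf1 (transcription factor, first of its 2 listed starts), chr11:53769864-53770013, plus strand: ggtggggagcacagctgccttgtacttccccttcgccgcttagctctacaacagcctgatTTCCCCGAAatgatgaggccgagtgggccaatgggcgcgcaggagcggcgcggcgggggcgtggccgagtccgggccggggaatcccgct

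In a window from 250 bases before to 50 bases after the start, the response element was found in 17 of the 32 members with a RefSeq promoter entry (53.1%), against 3.99% of 27025 genes. The gamma-activated site was found in 10 of 32 members (31.2%) against 9.55% of genes. *Isg15* had 3 overlapping matches to the response element, and *Ifit1* had 2 that did not overlap. In *Bst2* the gamma-activated site overlapped the first of 2 matches to the response element. *Igtp* held 1 match of each kind, and *Irf1* held only a gamma-activated site in the window shown. No entry was found for *Gbp4*, *Gbp6*, *Iigp1* and *Usp18*.

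Blood ECs held more member UMIs than lymphatic or perineurial-like cells in the WT libraries. Summed over the 36 members, blood ECs had 9668 and 9375 CPM at telogen and 10968 and 10875 CPM at anagen. Lymphatic ECs had 5115 and 5249 CPM at telogen and 8065 and 6177 CPM at anagen, and perineurial-like cells had 6787 and 6832 CPM at telogen and 8532 and 9012 CPM at anagen. The 2 cell types did not overlap blood ECs in any WT library. The 3 *Ifitm* genes made up 5542 of a mean of 9522 CPM in blood ECs at telogen, so the sum mainly reports them. Mast-like cells gave the lowest sums of any named population, 855 and 825 CPM at telogen.

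**Figure D1:**
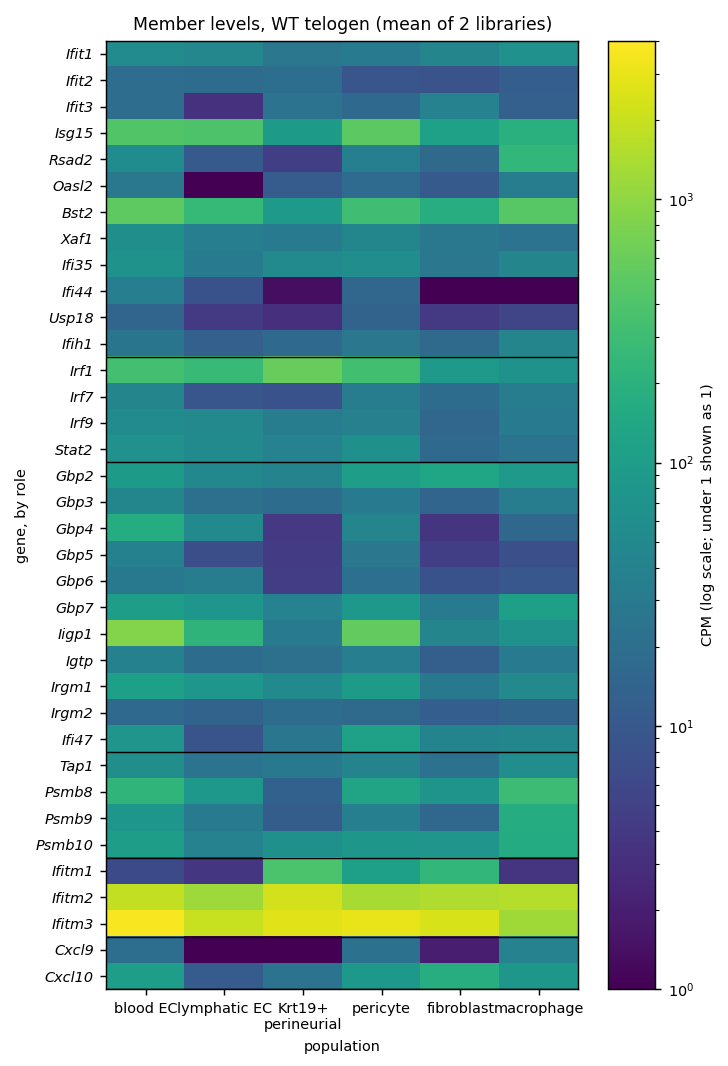
Level of each of the 36 members (vertical axis, grouped by role) in each population (horizontal axis) in WT telogen skin, as the colour-coded log CPM averaged over 2 libraries. Dark colours mark low levels and light colours high levels. *Cxcl9* and *Cxcl10* are dark in lymphatic ECs, and *Ifitm1* is lighter in perineurial-like cells than in blood ECs.

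Tested gene by gene over the 4 WT libraries with the library as a block, 28 of 36 members were lower in lymphatic than in blood ECs and 0 were higher, where 23.7% of all genes tested were lower and 24% were higher. Calls here and below needed an adjusted p under 0.05 (edgeR, quasi-likelihood test, Benjamini-Hochberg over all genes tested) and a fold over 1.3. The median member difference was −1.13 on the log2 scale against −0.01 for all genes. *Cxcl9*, a chemokine that recruits activated T cells, differed by −5.22 (SE 0.34, adjusted p = 1.01e-07). The 2′,5′-oligoadenylate synthetase-like gene *Oasl2* was 25.8 and 29.6 CPM in blood ECs at telogen and 0 and 0.386 CPM in lymphatic ECs. The GTPase *Iigp1* was 984 and 760 CPM in blood ECs and 161 and 274 CPM in lymphatic ECs at telogen. *Isg15*, *Ifit1*, *Ifit2* and *Gbp6* were among the members that did not pass this test, and *Isg15* was 454 and 378 CPM in blood against 417 and 378 CPM in lymphatic ECs at telogen.

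Perineurial-like cells were lower than blood ECs for 30 members and higher for 2, where 31.1% of all genes were lower and 32.6% higher. *Ifitm1*, a membrane protein that restricts viral entry, was 397 and 354 CPM at telogen in perineurial-like cells and 5.93 and 7.02 CPM in blood ECs, a difference of 6.12 on the log2 scale over the WT libraries (SE 0.23, adjusted p = 1.04e-08). *Irf1*, a transcription factor of the interferon-γ response, was the other higher gene (0.69, SE 0.09, adjusted p = 7.31e-05). *Psmb8*, a catalytic subunit of the immunoproteasome, was 7.26 and 19.1 CPM in perineurial-like cells at telogen against 221 and 227 CPM in blood ECs. Macrophage-like cells were higher than blood ECs for *Rsad2* (2.25, SE 0.48, adjusted p = 0.0025) and for *Ifih1*, a sensor of double-stranded RNA (1.77, SE 0.38, adjusted p = 0.00262), and lower for 14 members, where 24.5% of all genes were higher and 30.4% lower. *Iigp1* (−3.34) and *Irf1* (−2.10) were among the lower genes.

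In blood ECs the libraries labelled Alk1 KO were higher than WT telogen for 8 members and lower for 9, out of 36 tested, where 14.9% of all 11292 genes tested were higher and 17.8% lower. Of 11 GTPases 5 were higher and 0 lower, of 4 transcription factors 2 were higher and 0 lower, of 4 antigen-processing genes 3 were lower and 0 higher, and of 12 antiviral effectors 4 were lower and 0 higher. The median over the members was −0.07 against 0.02 over all genes.

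*Bst2*, or tetherin, was 439 and 585 CPM at telogen, 464 and 453 CPM at anagen, and 143 and 201 CPM in the KO libraries. Both KO libraries lay below all 4 WT libraries, and the difference from telogen was −1.62 (SE 0.19, adjusted p = 0.000202). The immunoproteasome subunits moved alike: *Psmb8* was 221 and 227 CPM at telogen and 114 and 115 CPM in the KO libraries (−1.01, SE 0.12, adjusted p = 0.000285), *Psmb9* differed by −1.53 and *Psmb10* by −1.22. *Ifi44*, an interferon-induced protein of poorly known function, was 28.9 and 40.9 CPM at telogen and 8.62 and 7.47 CPM in the KO libraries (−2.15, SE 0.24, adjusted p = 0.000182). *Cxcl10*, a chemokine of the same receptor as *Cxcl9*, *Ifi35*, *Ifitm3* and *Oasl2* were lower by smaller amounts, between −0.72 and −0.52.

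Among the higher genes *Ifitm1* was 5.93 and 7.02 CPM at telogen and 29.6 and 26.6 CPM in the KO libraries (2.07, SE 0.23, adjusted p = 0.000161). *Irgm1*, a GTPase that regulates the other members of its family, was 130 and 83.8 CPM at telogen and 238 and 190 CPM in the KO libraries (0.95, SE 0.21, adjusted p = 0.00621). *Irf1* was 412 and 260 CPM at telogen and 552 and 690 CPM in the KO libraries (0.84, SE 0.21, adjusted p = 0.0123). *Gbp2*, *Gbp5*, *Gbp6*, *Igtp* and *Stat2* were higher by 0.45 to 0.60. The other 19 members, *Isg15* among them (454 and 378 against 476 and 477 CPM), were not called. *Bst2*, *Ifi44*, *Ifitm1*, *Irgm1*, *Psmb8*, *Psmb9* and *Psmb10* stayed called whichever 1 of the 4 libraries was left out. The other 10 were each lost without at least 1 library, the call count falling to 9 without WT telogen S2, and DESeq2 called 10.

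**Figure D2:**
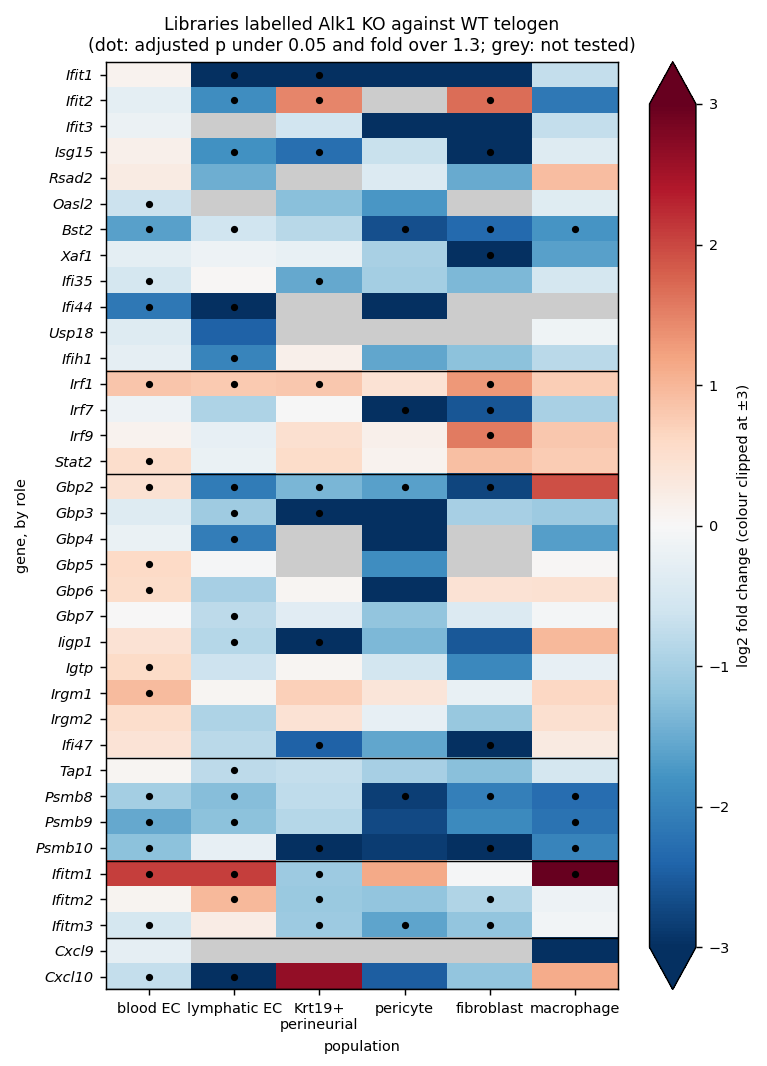
Log2 difference between the Alk1 KO and WT telogen libraries for each member (rows, grouped by role) in 6 populations (columns). Colour runs from lower to higher in KO and stops at −3 and 3, a dot marks a called difference and grey marks a gene that was not tested. *Bst2* and *Psmb8* have negative values in every column and *Irf1* has positive values in every column, while the GTPases differ in colour between blood and lymphatic ECs.

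In lymphatic ECs the same comparison gave 15 lower and 3 higher members out of 33 tested, where 13.5% of all 10920 genes were lower and 12.1% higher. *Oasl2*, *Ifit3* and *Cxcl9* fell under the filter on low counts in these cells. The median member difference was −0.84 against 0.03 over all genes. *Isg15*, a ubiquitin-like protein that is joined to other proteins, was 417 and 378 CPM at telogen, 697 and 482 CPM at anagen, and 105 and 129 CPM in the KO libraries (−1.82, SE 0.14, adjusted p = 1.46e-05). *Ifit1*, which binds viral RNA lacking host cap marks, was 63.9 and 27.8 CPM at telogen and 5.45 and 0.927 CPM in the KO libraries (−3.97, SE 0.54, adjusted p = 0.000453). The WT and KO libraries did not overlap for either gene.

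*Gbp2* was 43.8 and 53.7 CPM at telogen and 14.2 and 9.73 CPM in the KO libraries (−2.09, SE 0.22, adjusted p = 9.78e-05). *Gbp4* (−2.07), *Gbp3* (−1.07), *Iigp1* (−0.84) and *Gbp7* (−0.78) were lower as well, which makes 5 of 11 GTPases lower and 0 higher. *Cxcl10* had 3 UMIs in the 2 KO libraries together, a ratio of 29.2-fold lower with a counting interval of 9.52 to 146. *Ifi44* (−3.20), *Ifih1* (−1.99), *Ifit2* (−1.87), *Psmb8* (−1.28), *Psmb9* (−1.22), *Tap1* (−0.78) and *Bst2* (−0.60) made up the rest of the lower genes.

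*Ifitm2* was 1253 and 1126 CPM at telogen and 2435 and 2394 CPM in the KO libraries (0.96, SE 0.11, adjusted p = 0.000169). *Ifitm1* (2.08, SE 0.35) and *Irf1* (0.79, SE 0.15) were the other higher members. *Irf1* was 312 and 245 CPM at telogen and 467 and 541 CPM in the KO libraries. Of the 18 called members, 9 stayed called whichever library was left out: *Cxcl10*, *Gbp2*, *Gbp4*, *Ifit1*, *Ifitm1*, *Ifitm2*, *Irf1*, *Isg15* and *Psmb8*. *Bst2*, *Gbp3*, *Gbp7*, *Ifi44*, *Iigp1*, *Psmb9* and *Tap1* were not called without WT telogen S2, *Gbp3* was also lost without KO S2, and *Ifih1* and *Ifit2* were not called without WT telogen S1.

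**Figure D3:**
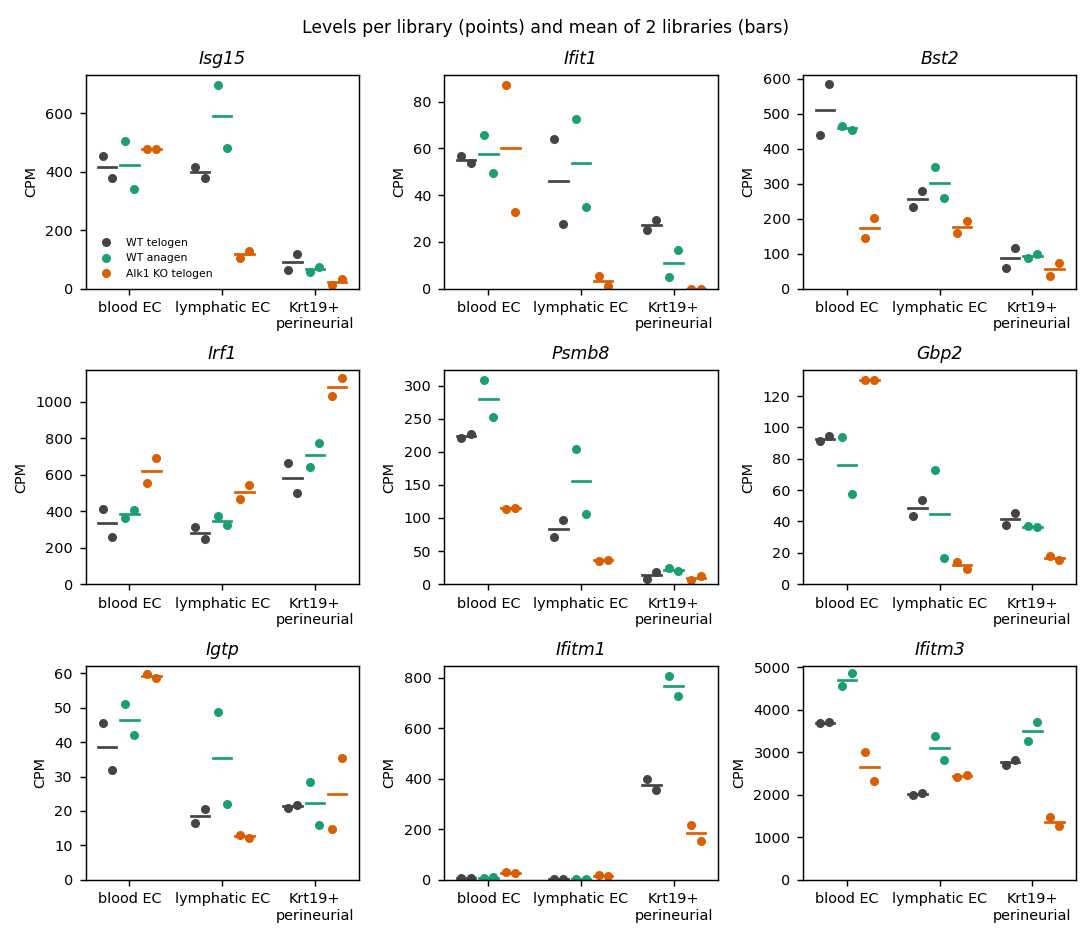
CPM of 9 members in each library (points) of WT telogen, WT anagen and Alk1 KO telogen skin, with bars at the mean of 2 libraries, for blood ECs, lymphatic ECs and perineurial-like cells. In lymphatic ECs both KO points of *Isg15*, at 105 and 129 CPM, lie below the 4 WT points, whereas in blood ECs, at 476 and 477 CPM, they lie within the WT range.

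The KO response itself differed between the lymphatic and the blood endothelium for 19 of 36 members when the difference was tested in 1 model over both populations, 15 of them with a lower value in lymphatic ECs and 4 with a higher one. Among all genes 9.13% had a lower and 9.23% a higher value. The GTPases made up 9 of the 15: *Gbp2* by −2.56 (adjusted p = 6.85e-06), *Gbp4* by −1.91, *Gbp6* by −1.52, *Irgm2* by −1.44, *Iigp1* by −1.27, *Igtp* by −1.21, *Ifi47* by −1.20, *Irgm1* by −0.91 and *Gbp7* by −0.79. *Isg15* differed by −2.00 (adjusted p = 4.74e-06) and *Ifit1* by −4.01 (adjusted p = 3.81e-05). *Bst2* (0.996), *Psmb10* (0.95), *Ifitm2* (0.86) and *Ifitm3* (0.73) were on the other side. Of the 19, 12 stayed called on leaving out any 1 library, among them *Isg15*, *Ifit1*, *Gbp2*, *Gbp4*, *Iigp1*, *Irgm1* and *Bst2*. The other 7 were *Gbp6*, *Gbp7*, *Ifi47*, *Igtp*, *Irgm2*, *Psmb10* and *Tap1*, and DESeq2 called 9.

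**Figure D4:**
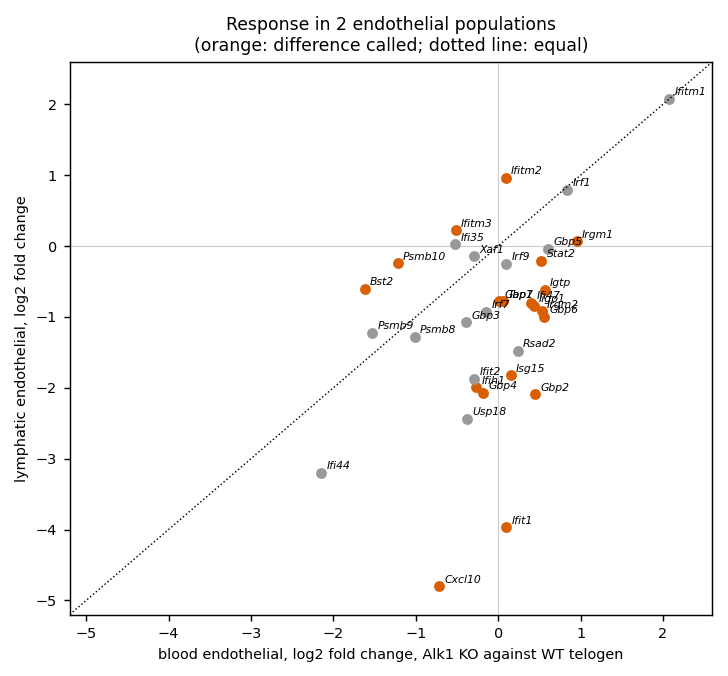
Log2 difference between the Alk1 KO and WT telogen libraries in blood ECs (horizontal axis) against the same in lymphatic ECs (vertical axis) for the 33 members tested in both, with members whose 2 responses differed by test in orange. The GTPases *Gbp2*, *Igtp* and *Irgm1* lie right of 0 and below the diagonal, while *Ifitm1* and *Irf1* lie above 0 on both axes.

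Members were also read by promoter motif, as a description only. In blood ECs, 17 members with the element had a median of 0.10 (5 higher, 3 lower) and 15 without it had a median of −0.29 (2 higher, 6 lower). In lymphatic ECs the medians were −0.85 and −0.78. Among the promoters printed above, *Isg15* and *Gbp2* hold the element and were lower in the KO lymphatic ECs. Of the 2 with both motifs, *Bst2* was lower in both endothelia, and *Igtp* was higher in blood ECs (0.56) and not called in lymphatic ECs.

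In *Krt19*+ perineurial-like cells 11 members were lower and 2 higher in the KO libraries out of 30 tested, where 10.5% of all genes were lower and 10.4% higher. The KO libraries held 88 and 66 of these cells, with medians of 3661 and 3270 UMIs per cell against 6747 and 5704 at telogen. All 3 *Ifitm* genes were lower: *Ifitm3* was 2708 and 2803 CPM at telogen and 1476 and 1254 CPM in the KO libraries (−1.09, SE 0.19, adjusted p = 0.00355), *Ifitm2* differed by −1.12 and *Ifitm1* by −1.08. *Psmb10* was 58.1 and 69.4 CPM at telogen and 2.95 and 11.8 CPM in the KO libraries (−3.31, SE 0.51, adjusted p = 0.00199). *Iigp1* and *Ifit1* had 0 UMIs in both KO libraries. Against a floor of 3 UMIs over the group they were at least 6.07-fold and at least 5.43-fold lower.

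*Irf1* was 665 and 499 CPM at telogen and 1028 and 1129 CPM in the KO libraries (0.81, SE 0.20, adjusted p = 0.0198), and *Ifit2* was 20.4 and 19.4 against 70.7 and 43.1 CPM (1.47, SE 0.33, adjusted p = 0.012). *Isg15* (−2.26), *Ifi35* (−1.53), *Gbp2* (−1.38), *Ifi47* (5.21-fold lower at 3 KO UMIs, interval 1.76 to 25.4) and *Gbp3* (11.5-fold lower at 1 KO UMI, interval 2.04 to 457) were the other lower members. Only *Psmb10*, *Iigp1* and *Ifit1* stayed called in every fit that tested them with 1 library left out, and the count was 4 without WT telogen S1 and 7 without WT telogen S2. Against the response of blood ECs, 9 members were lower and 3 higher, where 2.74% of all genes were lower and 2.85% higher. *Ifit1*, *Ifitm1*, *Ifitm2* and *Iigp1* stayed called on leaving out any library, with counts of 6 to 9 against 12, and DESeq2 called 7. *Ifitm1* had the opposite sign in the 2 populations (difference −3.21, adjusted p = 6.99e-07). The higher values of *Cxcl9* and *Cxcl10* came from KO S2 alone, with 157 and 337 CPM there and 0 in KO S1, and both differences turned negative without it (−5.07 and −8.62).

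Pericyte-like, fibroblast-like and macrophage-like cells had 24 to 58 cells in each KO library. In pericyte-like cells 5 members were lower and 0 higher of 33 tested, where 2.34% of all genes were lower and 2% higher. *Bst2* was 277 and 346 CPM at telogen and 59.6 and 46.6 CPM in the KO libraries (−2.64, SE 0.31, adjusted p = 0.0166). *Psmb8* was 148 and 109 against 19.9 and 18.7 CPM (−2.83, SE 0.40, adjusted p = 0.0244). These 2 stayed called on leaving out any library. *Ifitm3* (−1.58), *Gbp2* (−1.63) and *Irf7*, with 1 KO UMI (16.9-fold lower, interval 2.95 to 674), did not. The count of calls fell or rose with the library left out, and the share of all genes called in those fits was not compared.

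In fibroblast-like cells 10 members were lower and 3 higher of 30 tested, where 21.4% of all genes were lower and 17.7% higher. *Isg15* was 88.9 and 145 CPM at telogen and 9.84 and 8.90 CPM in the KO libraries (−3.96, SE 0.44, adjusted p = 0.000414), *Psmb10* differed by −3.33, *Gbp2* by −2.75 and *Bst2* by −2.34. *Irf1* was 95.4 and 74.9 against 295 and 227 CPM (1.29, SE 0.24, adjusted p = 0.00421), *Irf9* differed by 1.56 and *Ifit2* by 1.68. Of the 13 calls 10 stayed on leaving out any library, and *Ifit2* was lost without either telogen library or KO S2, *Ifitm2* without WT telogen S2 and *Irf7* without KO S2. In macrophage-like cells 4 members were lower and 1 higher of 35 tested, where 7.11% of all genes were lower and 5.15% higher. *Psmb8* was 332 and 261 against 18.9 and 89.9 CPM (−2.30, SE 0.45, adjusted p = 0.0141), *Psmb9* differed by −2.21, *Psmb10* by −1.98 and *Bst2* by −1.76, and *Ifitm1* was higher by 3.54 at 8 and 10 KO UMIs. All but *Ifitm1* stayed called on leaving out any library. More members were called without KO S2, where the share of all genes called was not compared. In fibroblast-like and macrophage-like cells 9 and 8 of 14 immediate-early and heat-shock genes, a list for dissociation stress, were also higher in the KO libraries. Their part in the member differences was not tested.

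Over the 6 populations 24 of 36 members were lower in at least 1, where 30.4% of 13421 genes were, and 11 were higher in at least 1, where 28.9% were. In both directions 4 members were called, and 5 were not called anywhere. *Bst2* and *Psmb8* were lower in 5 of 6 populations, where 1.09% of genes were lower in 5 or more, and *Gbp2*, *Ifitm3* and *Psmb10* in 4, where 3.43% were lower in 4 or more. Genes tested in more populations had more chances of a call: of 6550 genes tested in all 6, 38.8% were lower and 34.7% higher in at least 1, against 20 and 9 of 27 members. *Irf1* had a positive value in all 6, from 0.44 to 1.29, and was called in 4, although its value in capillary-like cells alone was −0.42. *Ifit3*, *Rsad2*, *Usp18*, *Irgm2* and *Cxcl9* were the members with no call.

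The blood endothelium was divided further, into artery-like, vein-like and capillary-like clusters and a cluster of 1966 cells with none of these names, led by *Ifi202b*, *Prdm1* and *Adamts4*, that was added as a population after the clusters had been seen. Members and the gene lists below had been left out of the genes used for clustering. Interferon-inducible genes outside these lists, *Ifi202b* among them, were not left out. The member levels of this cluster may thus depend in part on how it was formed, which was not tested. In capillary-like cells 14 members were lower and 1 higher in the KO libraries of 33 tested, where 18% of all genes were lower and 16.2% higher. *Isg15* differed by −1.78 (SE 0.24, adjusted p = 0.000113), *Ifitm3* by −1.67, *Bst2* by −1.91 and *Ifi44* by −2.87. In the unnamed cluster 7 members were higher and 5 lower of 36, where 8.63% of all genes were higher and 9.98% lower. The higher ones there were *Irf1* (1.45), *Gbp2* (1.40), *Cxcl10* (1.38), *Gbp6* (1.32), *Irgm1* (1.08), *Igtp* (0.83) and *Stat2* (0.70). Of these *Irf1*, *Gbp2* and *Gbp6* stayed called on leaving out any library, *Igtp* and *Stat2* were each lost in 3 of 4 such fits, *Cxcl10* was lost without WT telogen S1 and *Irgm1* without WT telogen S2. At a finer cluster resolution *Cxcl10* in this cluster was −0.19.

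*Bst2*, *Psmb8*, *Psmb9* and *Psmb10* were lower in all 4 blood endothelial populations, and *Bst2* stayed called in each on leaving out any library. In each of these populations 9.81% to 18% of all genes were lower. The share of all genes lower in all 4 was not compared, and the populations came from the same mice. *Psmb9* was lost without WT telogen S2 in artery-like cells and in the unnamed cluster, *Psmb8* without it in the unnamed cluster, and *Psmb10* without WT telogen S1 or KO S1 in vein-like cells. Summed over members, capillary-like cells had 7868 and 7437 CPM at telogen and 4182 and 4324 CPM in the KO libraries, and the unnamed cluster had 11883 and 12856 against 13830 and 14565 CPM. The dissociation-stress list moved with these: 9 of its 14 genes were lower in KO capillary-like cells and 7 were higher in the unnamed cluster. The boundary between these clusters matters for single genes, since at a finer cluster resolution *Gbp2* (0.67), *Igtp* (0.69) and *Cxcl10* (1.71) had positive KO values in capillary-like cells. In artery-like cells 9 members were lower and 2 higher, where 9.81% of all genes were lower and 8.1% higher, and in vein-like cells 9 were lower and 3 higher, where 10.6% were lower and 8.57% higher. Of these calls 4 of 11 in artery-like cells and 7 of 12 in vein-like cells stayed on leaving out any library. The vein-like ones included *Ifitm1* (3.12) and *Cxcl10* (−2.65).

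The lymphatic clusters were also tested as a *Ccl21a*-high and a *Cldn11*-high group, an addition made after the KO cells were seen to lie more in the first. In *Ccl21a*-high cells 11 members were lower and 3 higher of 31, where 8.3% of all genes were lower and 6.92% higher. *Isg15* differed there by −2.86 (SE 0.19, adjusted p = 1.43e-05) and *Ifit1* by −6.16. In *Cldn11*-high cells 7 were lower and 2 higher of 27, where 10% were lower and 8.76% higher, with *Gbp2* at −2.48 and *Isg15* at −0.75 (SE 0.20, adjusted p = 0.0193). The *Isg15* call was lost without WT telogen S2 and without KO S1, at values between −1.17 and −0.43 over the libraries left out. *Irf1* was higher in both groups, by 0.93 and 1.10.

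The members were also counted in single cells, where the count of members and the number of their UMIs went different ways in lymphatic ECs. Each cell was thinned to 1500 UMIs, and the share of cells with a UMI of at least 5 members was counted. Blood ECs gave 66.9% and 61.2% at telogen, 69.6% and 67.0% at anagen, and 44.1% and 43.4% in the KO libraries. Capillary-like cells gave 66.0% and 52.9% at telogen and 20.4% and 20.1% in the KO libraries, and in the unnamed cluster the values were 79.1% and 86.0% against 77.9% and 82.2%. Lymphatic ECs gave 20.8% and 23.8% at telogen, 42.5% and 21.7% at anagen, and 11.7% and 13.3% in the KO libraries. The median lymphatic cell nevertheless held 8 member UMIs in the KO libraries against 6 at telogen, and 24 against 16 without thinning. The summed level in lymphatic ECs was 6244 and 6347 CPM in the KO libraries against 5115 and 5249 CPM at telogen, of which the *Ifitm* genes made up means of 4875 and 3204 CPM. In blood ECs the sum was 9257 and 8674 CPM in the KO libraries against 9668 and 9375 CPM, and the median cell held 9 member UMIs against 12. Without thinning the shares were 93.9% at telogen and 76.3% in the KO libraries for blood ECs, 93% and 54.5% for capillary-like cells and 57.1% and 48.1% for lymphatic ECs. Cells under 1500 UMIs were left out, 20 telogen and 47 KO blood ECs and 93 telogen and 89 KO lymphatic ECs. Mast-like cells, set beside them as a rough guide to what free RNA can give, had 1 of 139 at telogen (0.719%), with 89 cells left out. In the KO libraries only 16 mast-like cells could be counted, 0 of them with at least 5 members. The level of free RNA itself was not measured. The median cell held 5399 and 6348 UMIs in telogen blood ECs and 5094 and 5823 in KO blood ECs, and 1652 and 2081 in telogen mast-like cells. Cells of 1 library are not replicates, and no test was made over them.

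Between WT anagen and WT telogen few members were called. In blood ECs 0 of 36 passed in edgeR, where 0.00782% of all genes did, although DESeq2 called 4. An unadjusted p under 0.05 was found for 9 of 36 members and for 2060 of all 12795 genes. A positive value was found for 28 of 36 members (49.8% of all genes). The smallest p values were those of *Psmb9* (0.73, adjusted p = 0.145), *Ifi47* (0.68, adjusted p = 0.181) and *Rsad2* (0.92, adjusted p = 0.181). *Psmb9* was 73.6 and 83.0 CPM at telogen and 129 and 106 CPM at anagen. Some members were called on leaving out either anagen library, where the share of all genes called was not compared.

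In lymphatic ECs *Ifitm3* was called (0.74, SE 0.14, adjusted p = 0.0323), where 1.78% of all genes were, with 1989 and 2032 CPM at telogen and 3377 and 2809 CPM at anagen. It was lost without either telogen library. *Psmb10* (1.005, adjusted p = 0.0539) and *Isg15* (0.70, adjusted p = 0.0902) were next, and 28 of 33 values were positive. The 2 anagen libraries stood apart for many members: *Gbp2* was 73.1 CPM in S1 and 16.7 CPM in S2, and *Gbp4* was 141 and 36.3 CPM, against 38.0 and 67.2 CPM at telogen. Leaving out either anagen library gave more calls among the members, and the share of all genes called in those fits was not compared.

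In perineurial-like cells *Ifitm1* was called at anagen (1.13, SE 0.12, adjusted p = 0.0143), where 0.686% of all genes were, and it stayed called on leaving out any library but not with all 6 libraries in 1 fit. It was 397 and 354 CPM at telogen and 807 and 727 CPM at anagen. *Ifitm2* (0.50, adjusted p = 0.0686) and *Ifitm3* (0.44, adjusted p = 0.107) came next. *Ifitm1* was thus the member that was higher at anagen and lower in the KO libraries in these cells, against the same 2 telogen libraries in both cases.

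No member was called by edgeR in pericyte-like, fibroblast-like or macrophage-like cells at anagen, where 0%, 0.229% and 1.56% of all genes were. An unadjusted p under 0.05 was found for 526 of 8753, 1134 of 9189 and 1773 of 9418 genes. It was found for 5 of 35, 5 of 31 and 13 of 35 members. The nearest were *Ifitm1* in pericyte-like cells (1.12, adjusted p = 0.762), *Irgm1* in fibroblast-like cells (1.23, adjusted p = 0.147) and *Ifih1* in macrophage-like cells (1.86, adjusted p = 0.0504). *Rsad2* was called in artery-like cells (1.13, adjusted p = 0.0364), where 0.388% of genes were, and *Psmb10* in *Cldn11*-high lymphatic cells (1.22, adjusted p = 0.0401), where 1.1% were. Both calls were lost on leaving out some library. There were 0 calls in vein-like (0.826%), capillary-like (0%), *Ifi202b*-led (0.311%) and *Ccl21a*-high cells (0.179%). Of the members tested there, 8 of 36, 12 of 35, 8 of 36 and 6 of 31 had an unadjusted p under 0.05. Of all genes 1220 of 9326, 935 of 9537, 1789 of 9660 and 1384 of 8391 did. The anagen response did not differ by test between lymphatic and blood ECs or between perineurial-like cells and blood ECs for any member, where 0.174% and 0.89% of all genes were called. An unadjusted p under 0.05 was found for 7 and 5 of 36 members, and for 966 of 12086 and 1292 of 12586 genes.

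The rest of the pathway was read from lists kept apart from the 36 members. Of 10 interferon ligand genes 1, *Ifnb1*, could be tested, in macrophage-like cells, where the summed ligand level was 38.9 and 27.8 CPM at telogen, 274 and 27.0 CPM at anagen, and 0 in both KO libraries. In blood and lymphatic ECs that sum was 0.885 CPM or less in every library. Of 5 receptor genes tested, *Ifngr1* was higher in the KO libraries in blood ECs (0.43), lymphatic ECs (0.56), perineurial-like cells (1.46) and fibroblast-like cells (1.54), and its partner *Ifngr2* was lower in blood ECs (−0.97), lymphatic ECs (−0.55), fibroblast-like cells (−1.09) and macrophage-like cells (−1.72). *Ifnar2*, a chain of the type I receptor, was lower in blood ECs (−0.57) and perineurial-like cells (−2.45). In blood ECs 1 receptor gene was higher and 2 lower, where 14.9% and 17.8% of all genes were. Lymphatic ECs had 2 higher, *Ifngr1* among them, and 1 lower, where 12.1% and 13.5% were. Perineurial-like cells had 1 and 1 (10.4% and 10.5% of all genes), fibroblast-like cells 1 and 1 (17.7% and 21.4%) and macrophage-like cells 0 and 1 (5.15% and 7.11%).

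Of the signalling genes, 2 of 12 tested were higher in KO blood ECs, *Irf2* (0.50) and *Stat3* (0.44), a share near the 14.9% of all genes, and in lymphatic ECs 4 of 13 were higher and 2 lower, where 12.1% and 13.5% of all genes were. The kinase gene *Jak1* was 1 of those lower in lymphatic ECs, and *Socs3*, an inhibitor of cytokine signalling, was 1 of those higher. Of the sensors 1 was higher and 1 lower of 10 tested in blood and in lymphatic ECs, 1 and 1 of 7 in perineurial-like cells, 0 and 1 of 7 in fibroblast-like cells, and 1 and 2 of 10 in macrophage-like cells. The shares of all genes are those given above for the receptors, and these counts are not read as a result about the sensors. The higher ones were *Tbk1* in blood ECs (0.70), *Myd88* in lymphatic (1.03) and perineurial-like cells (0.82), and *Cgas* in macrophage-like cells (1.97). *Zbp1*, which detects Z-form nucleic acid, was lower in blood ECs (−1.86), lymphatic ECs (−2.84), fibroblast-like cells (−3.20) and macrophage-like cells (−2.57). Of 42 other interferon-stimulated genes 40 were found. In blood ECs 8 were higher and 10 lower of 35 tested, where 14.9% and 17.8% of all genes were. Lymphatic ECs had 1 higher and 11 lower of 26 (12.1% and 13.5% of all genes). Perineurial-like cells had 0 and 6 of 24 (10.4% and 10.5%), and pericyte-like cells 0 and 6 of 24 (2% and 2.34%). Fibroblast-like cells had 0 and 12 of 24 (17.7% and 21.4%), and macrophage-like cells 1 and 5 of 35 (5.15% and 7.11%). In blood ECs the higher ones included the GTPases *Gbp9* (1.10), *Gbp10* (1.79), *Tgtp1* (2.94) and *Tgtp2* (1.93), and *Ifi27* (−1.73) and the proteasome activators *Psme1* (−0.65) and *Psme2* (−0.48) were lower. Several of these genes have near-identical neighbours, so their counts may be shared between copies. At anagen 2 of 27 of these genes were higher in lymphatic ECs, where 1.32% of all genes were. In the other 5 populations 0 were higher, where 0% to 1.33% of all genes were.

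Transcript length moved with the KO difference. Genes with a longest coding transcript of at most 1000 nucleotides had a median KO difference of −0.52 in blood ECs, −0.63 in perineurial-like cells and −1.17 in fibroblast-like cells, and genes over 5000 nucleotides had 0.20, 0.28 and 0.44. In lymphatic ECs both medians were −0.02. The short members were *Ifitm2* (655), *Ifitm3* (678), *Isg15* (756), *Bst2* (792) and *Ifitm1* (882 nucleotides). After the median of the length class was subtracted the member median was 0.01 in blood ECs, −0.90 in lymphatic ECs, −0.41 in perineurial-like cells, −1.20 in fibroblast-like cells and 0.10 in macrophage-like cells. The part of transcript length in each gene's difference was not tested.

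**Figure D5:**
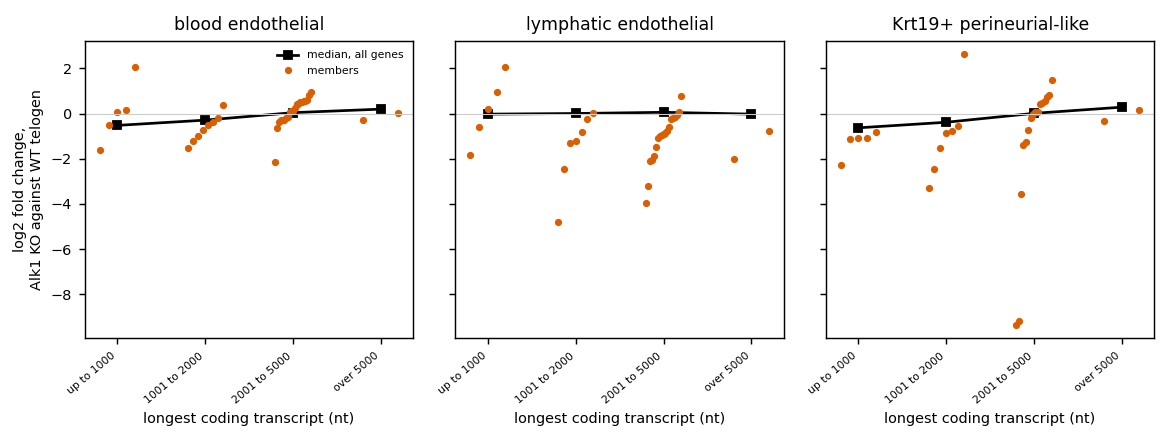
Log2 KO difference by class of transcript length in blood ECs, lymphatic ECs and perineurial-like cells, with the median of all genes in black and each member in orange. The black medians run from −0.52 to 0.20 in blood ECs and lie at −0.02 at both ends in lymphatic ECs, and the 2 perineurial points near the foot are *Iigp1* and *Ifit1*, with 0 KO UMIs.

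Markers of macrophages moved with the KO comparison in the endothelial cells, and macrophage-like cells numbered 335 and 781 at telogen against 24 and 33 in the KO libraries. The sum of 9 macrophage markers in blood ECs was 37.6 and 73.5 CPM at telogen and 10.8 and 10.5 CPM in the KO libraries, and in lymphatic ECs it was 78.2 and 124 against 19.1 and 23.4 CPM. These sums were at most 0.349% of the level in macrophage-like cells for blood ECs and 0.589% for lymphatic ECs. In pericyte-like cells the share reached 1.19%. The part of macrophage RNA in the member differences was not tested.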

How the data were processed

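Gene-by-cell tables of UMI counts, made by the authors with Cell Ranger 6.0.1 on mm10 and deposited per library (the submitters' notes also name Seurat 4.0), were used as raw counts without normalization. The cells came from tdTomato+ sorted mouse dorsal skin in 6 libraries, 2 each of WT telogen, WT anagen and Alk1 KO telogen, grouped by GEO's titles. No table held columns of other samples (0).

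Barcodes were kept if they showed between 200 and 5000 genes and a mitochondrial share below 10%. The cells left were clustered with leidenalg 0.10.2 at resolution 0.6, with the members and pathway lists left out of the variable genes, and clusters were named from marker lists. A doublet caller's automatic threshold marked 2 to 58 cells per library, which was too few to have worked, so no doublet was removed, and removing the top 5% of scores was an alternative. UMIs were summed per library and population, and populations with at least 10 cells in every library were tested.

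Tests used edgeR 4.0.16 (limma 3.58.1, R 4.3.3) with filterByExpr, TMM and the quasi-likelihood test, two-sided. P-values were adjusted by Benjamini-Hochberg across every gene in the fit, and genes were called at an adjusted p below 0.05 with a fold above 1.3. KO and anagen libraries were each compared with the WT telogen libraries, so both comparisons share their controls. Cell types were compared over WT libraries with the library as a block. Differences between populations in the KO or anagen response were interaction terms in 1 fit. DESeq2 1.42.0 was an alternative. Simulated data were used to test the KO and anagen fits of the 6 main populations and the lymphatic against blood fit. The other fits, interaction terms among them, were not tested in this way. Exact binomial and counting intervals (95%) and floors of 3 UMIs cover counting error only.

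Named were the members called in a comparison, and where fewer than 3 were called, those with the smallest p. The members, the pathway lists and the tests were chosen with earlier results of these data known. The *Ifi202b*-led blood cluster, the lymphatic subgroups, the crossed replicate block and the length-class subtraction were added after the data had been seen. Transcript lengths came from GENCODE vM21 and promoters from RefSeq on GRCm38.p6. Alternatives covered filtering, scaling, tool, samples in the fit, replicate block, each library left out, stricter cells, doublets and clustering.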

Additional observations from a re-analysis of the deposited data

Results flagged for a closer look

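The response to the Alk1 KO label differed by test between populations for 31 combinations of a member and a pair of populations, all in edgeR quasi-likelihood fits with Benjamini-Hochberg adjustment. Values are the log2 KO difference in the first population minus that in blood ECs.

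For lymphatic ECs the negative values were *Cxcl10* −4.11, *Ifit1* −4.01, *Gbp2* −2.56, *Isg15* −2.00, *Gbp4* −1.91, *Ifih1* −1.73, *Gbp6* −1.52, *Irgm2* −1.44, *Iigp1* −1.27, *Igtp* −1.21, *Ifi47* −1.20, *Irgm1* −0.91, *Tap1* −0.85, *Gbp7* −0.79 and *Stat2* −0.75. The positive values were *Ifitm3* 0.73, *Ifitm2* 0.86, *Psmb10* 0.95 and *Bst2* 0.996. *Ifi47* (adjusted p = 0.0486) and *Irgm2* (adjusted p = 0.0355) lay nearest the threshold.

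For *Krt19*+ perineurial-like cells the negative values were *Iigp1* −9.99, *Ifit1* −9.53, *Ifitm1* −3.21, *Ifi47* −2.89, *Isg15* −2.41, *Psmb10* −2.14, *Gbp2* −1.87, *Ifitm2* −1.27 and *Ifitm3* −0.62. *Iigp1* and *Ifit1* had 0 UMIs in both KO libraries of these cells, so their fitted sizes are no bound. *Psmb10* was not called in any fit with 1 library left out, nor was *Ifit2*, which had a positive value of 1.69. *Cxcl10* (3.20) and *Cxcl9* (6.38) were positive through KO S2 alone, and became −8.62 and −5.07 without it.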

How the results depend on the processing

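Counts of called members are given with the value reported above in brackets. The share of all genes called under each alternative was not compared, so a changed count cannot be read as a result about the members. With DESeq2 the KO count was 10 in blood ECs [17], the differences in KO response numbered 9 for lymphatic ECs [19] and 7 for perineurial-like cells [12], and the anagen counts were 4 in blood ECs [0], 3 in lymphatic ECs [1] and 2 in perineurial-like cells [1]. Without a filter on low counts the KO counts were 21 in pericyte-like [5], 24 in fibroblast-like [13] and 10 in macrophage-like cells [5], and the anagen counts were 11 in perineurial-like [1], 15 in lymphatic [1], 7 in fibroblast-like [0], 9 in macrophage-like [0] and 5 in pericyte-like cells [0]. With DESeq2's size factors 1 member was called in macrophage-like cells at anagen [0]. All 6 libraries in 1 fit gave 0 in perineurial-like [1] and 1 in macrophage-like cells [0] at anagen.

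Replicate numbers gave no pairing (correlations −0.171 to 0.174, 2 pairs). With the replicate block the KO count was 3 in pericyte-like cells [5], and the anagen counts were 7 in lymphatic ECs [1] and 2 in macrophage-like cells [0]. With the crossed replicate block, added after the data had been seen, the pericyte-like KO count was 13, and 1 member was called in capillary-like cells at anagen [0].

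Stricter cells gave 0 anagen calls in lymphatic ECs [1]. Removing likely doublets gave 10 KO calls in pericyte-like cells [5] and 2 anagen calls in lymphatic ECs [1], and left under 10 macrophage-like cells in an anagen library, so that comparison has no value. Variable genes without exclusions gave 2 anagen calls in lymphatic ECs [1] and 1 in macrophage-like cells [0], where finer clusters gave 2.

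Leaving out 1 library gave KO counts of 9 to 19 in blood ECs, 4 to 12 in perineurial-like, 3 to 25 in pericyte-like and 5 to 11 in macrophage-like cells. The anagen counts were 0 to 6 in blood ECs, 1 to 23 in lymphatic ECs, 1 to 4 in perineurial-like, 0 to 4 in pericyte-like, 0 to 4 in fibroblast-like and 0 to 13 in macrophage-like cells. Differences in KO response for perineurial-like cells numbered 6 to 9, and differences in anagen response 0 to 6 for perineurial-like cells and 0 to 1 for lymphatic ECs.

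The member median turned to 0.0074 in blood ECs [−0.07] and 0.097 in macrophage-like cells [−0.24] after subtraction of the length-class median. At a finer resolution the KO value in capillary-like cells was 1.71 for *Cxcl10* [−2.57], 0.67 for *Gbp2* and 0.69 for *Igtp*, and that of *Cxcl10* in the *Ifi202b*-led cluster was −0.19 [1.38]. With variable genes without exclusions *Cxcl10* in capillary-like cells was 0.017. The perineurial differences of *Cxcl10* and *Cxcl9* ran from −8.62 to 4.41 and from −5.07 to 8.75 as libraries were left out. The causes were not tested.

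With stricter cells the summed level was 9903, 11270 and 9424 CPM in telogen, anagen and KO blood ECs, and 5859 and 6502 CPM in telogen and KO lymphatic ECs. The share of cells with at least 5 members was 86.4%, 91.8% and 72.1% in telogen, anagen and KO blood ECs at 3000 UMIs and 93.9%, 95.6% and 76.3% without thinning. In lymphatic ECs it was 50.8%, 60.9% and 33.5% at 3000 UMIs and 57.1%, 68.2% and 48.1% without thinning.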
